A study of Mus musculus with 6 samples.

Results

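The 38 marker genes of differentiated neurons were described in dissected mouse ear tissue. They were chosen by name as genes for neuronal filaments and microtubules, RNA-binding proteins, adhesion molecules, synaptic and secretory proteins and sensory channels, with transcription factors of neuronal lineages left out. This choice was made with earlier results of these data known. All 38 of 38 had a probe set named for that gene alone, and all 38 passed the filter on dim genes, among 14170 genes tested of 18193 with a named probe set. On the array they had 93 of the 45101 probe sets, and for each gene the brightest of its probe sets by mean log2 level was used.

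The tissue was the otic vesicle, the epithelial sac that becomes the inner ear, taken with the periotic mesenchyme around it at embryonic day 11.5. Mest-KO pools were T-Cre conditional Tbx1 knockouts, and control pools were T-Cre conditional Tbx1 heterozygotes, so pools of both genotypes carried the Cre and at least 1 altered copy of Tbx1. T-Cre is driven by sequences of the Brachyury gene T, which is active in early mesoderm, so the knockout is one of mesoderm and not of the otic epithelium. There were 3 arrays of each genotype, each from a pool of both ears of 3 embryos. The labels call them biological replicates. Tbx1 itself, a T-box transcription factor gene, read 520.5, 578 and 409.9 in Mest-KO, against 524.5, 567 and 447 in control, on a linear intensity scale. These ranges overlapped (log2 difference -0.03 ± 0.14, limma, adjusted p = 0.967), and the value does not check the labels, because otic epithelium also makes Tbx1 and the position of its probe set relative to the deleted part is not given.

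As background, the neurons nearest the otic vesicle at this stage are those of the cranial sensory ganglia. Neurons of the inner ear ganglion leave the otic epithelium, others come from the epibranchial and trigeminal placodes and from neural crest, and none of these sources is mesoderm. A cell that leaves the cycle as a neuron switches on neuron-specific tubulin and neurofilaments, proteins that stabilise its messenger RNAs, adhesion molecules for axon growth, then vesicle and granule proteins and the channels of its sensory class. In bulk tissue, fewer neurons and less RNA per neuron cannot be told apart.

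Promoter sequence from RefSeq (GRCm38.p6, 250 bases before to 50 bases after a gene's start) was found for 24 of the 38 genes, in 44 windows of 300 bases. The 5 windows that follow are shown here because they belong to L1cam and the Hu genes Elavl2, Elavl3 and Elavl4, which are among the genes with the smallest p in the comparison below, and to Scg2, which was not higher in Mest-KO. Where a gene had several windows, the one with the most motif matches is given. Capitals mark matches to 2 E-boxes, CAGATG, which reads CATCTG on the other strand, and CAGCTG, which is its own reverse complement, the kind of site that neuronal basic helix-loop-helix factors bind, and to CAGCACC, which reads GGTGCTG on the other strand, and GGACAGC, which reads GCTGTCC there, the inner parts of the RE1 element bound by the repressor REST. Both strands were searched, and none of these motifs holds another.
L1cam, chrX:73880741-73881040, minus strand: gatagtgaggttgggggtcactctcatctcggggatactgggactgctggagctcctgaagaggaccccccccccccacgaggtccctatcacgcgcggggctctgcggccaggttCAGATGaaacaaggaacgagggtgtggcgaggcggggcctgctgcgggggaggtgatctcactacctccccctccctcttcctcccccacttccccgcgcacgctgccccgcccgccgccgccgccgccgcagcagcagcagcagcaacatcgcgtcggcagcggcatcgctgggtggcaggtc
Elavl2, chr4:91376421-91376720, minus strand: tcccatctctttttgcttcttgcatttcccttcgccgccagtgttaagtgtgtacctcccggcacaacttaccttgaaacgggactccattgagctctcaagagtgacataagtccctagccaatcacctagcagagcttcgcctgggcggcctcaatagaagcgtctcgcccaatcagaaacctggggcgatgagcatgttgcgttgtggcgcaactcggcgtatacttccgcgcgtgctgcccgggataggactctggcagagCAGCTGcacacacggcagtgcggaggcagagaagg
Elavl3, chr9:22051974-22052273, minus strand: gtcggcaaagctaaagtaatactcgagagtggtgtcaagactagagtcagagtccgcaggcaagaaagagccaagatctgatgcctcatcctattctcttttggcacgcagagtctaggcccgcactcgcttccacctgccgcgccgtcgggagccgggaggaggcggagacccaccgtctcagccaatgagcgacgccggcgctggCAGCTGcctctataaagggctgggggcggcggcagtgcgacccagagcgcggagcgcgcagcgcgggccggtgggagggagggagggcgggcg
Elavl4, chr4:110287462-110287761, minus strand: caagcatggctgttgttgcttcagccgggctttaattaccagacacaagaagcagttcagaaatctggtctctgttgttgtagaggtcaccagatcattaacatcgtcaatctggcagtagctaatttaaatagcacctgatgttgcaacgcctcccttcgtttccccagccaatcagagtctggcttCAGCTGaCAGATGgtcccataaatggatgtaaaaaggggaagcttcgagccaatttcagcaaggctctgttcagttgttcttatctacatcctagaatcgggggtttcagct
Scg2, chr1:79439977-79440276, minus strand: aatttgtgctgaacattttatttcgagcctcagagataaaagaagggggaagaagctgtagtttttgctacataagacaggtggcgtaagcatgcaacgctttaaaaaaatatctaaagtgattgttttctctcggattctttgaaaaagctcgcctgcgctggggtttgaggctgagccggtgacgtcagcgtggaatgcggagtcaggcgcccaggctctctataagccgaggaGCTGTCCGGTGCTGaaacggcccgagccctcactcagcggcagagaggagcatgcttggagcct
The L1cam window had 1 match to CAGATG, the Elavl2 and Elavl3 windows 1 match each to CAGCTG, and in Elavl4 a CAGCTG and a CAGATG match stood 1 base apart. In Scg2, which encodes a granule protein, GCTGTCC and GGTGCTG followed each other directly. CAGATG was found in a window of 7 of the 24 genes (29.2%), against 19.2% of all 27025 genes with a window, and CAGCTG in 8 of 24 (33.3%) against 18.3%. CAGCACC was found in 5 of 24 (20.8%) against 8.14% and GGACAGC in 4 of 24 (16.7%) against 7.59%. Whether the motifs went with the difference could not be judged, because only Celf3, Syt1 and Scg2 of the 24 genes were not higher. CAGCTG was also found in Celf3 and Syt1, which were not higher in Mest-KO (log2 differences -0.13 and -0.04). Besides Scg2, the RE1 parts were found in Chgb, Kif5c, Map1b, Tubb3, Crmp1 and Rtn1, all with a difference above 0. The motifs were chosen after expression values were known. These shares describe letters in short windows, and several genes had more windows than others. The 24 genes had more windows per gene (44 windows) than all 27025 genes did (32851 windows), which can raise their shares. By window, CAGATG was found in 12 of 44 (17.2% of all windows) and CAGCTG in 13 (16.3%). CAGCACC was found in 5 of 44 (7.14%) and GGACAGC in 4 (6.56%).

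Most of the 38 genes were slightly higher in Mest-KO, and 1 of them passed the test over all genes. The log2 difference, always Mest-KO minus control on log2(intensity + 16), was above 0 for 34 of the 38 genes, against 53.8% of all genes tested. Its median was 0.15 for the 38 genes and 0.01 for all genes. The differences ran from -0.14 for Scg2 to 1.20 for Pex5l. At an adjusted p under 0.05 (limma, Benjamini-Hochberg over all genes tested), 1 gene rose, Pex5l, where 0.0847% of all genes rose, and 0 fell, where 0.0635% of all genes fell. At an unadjusted p under 0.05, 11 were higher (5.73% of all genes) and 0 were lower (3.24%). All 3 Mest-KO arrays lay above all 3 control arrays for 12 genes (9.32% of all genes) and below them for 0 (5.22%). Because the 38 genes were chosen with earlier results of these data known, these counts beside the shares of all genes are not a test. The counts depended on how arrays were scaled. Centring arrays on their medians lowered the difference of every gene by the same 0.065, and the median was then 0.083 for the 38 genes and -0.05 for all genes. On that scale 3 of the 38 genes were apart toward higher values (4.50% of all genes), 4 were higher at an unadjusted p under 0.05 (2.87% of all genes) and 29 had a difference above 0 (36.8% of all genes).

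**Figure D1:**
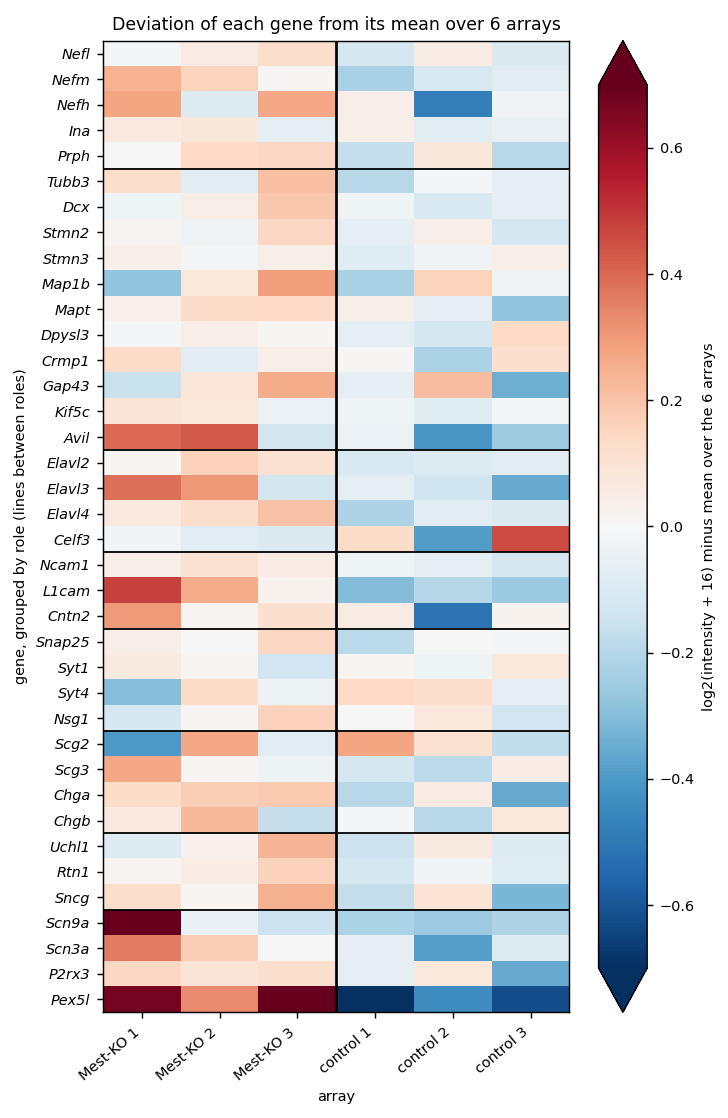
Deviation of log2(intensity + 16) from each gene's own mean over the 6 arrays, with arrays in columns and the 38 genes in rows, grouped by role. Mest-KO columns are mostly red and control columns mostly blue, while the rows of Syt1, Syt4, Scg2 and Celf3 do not follow this. The scale ends at 0.7 in both directions, which Pex5l and Scn9a pass.

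Averaged over the 38 genes, the deviation was 0.11, 0.09 and 0.09 in Mest-KO 1, 2 and 3 and -0.09, -0.09 and -0.11 in control 1, 2 and 3. The arrays of a genotype were therefore close together and the genotypes apart. The genes did not all follow the same array. Of the 38 genes, 11 had their highest value in Mest-KO 1, 5 in Mest-KO 2 and 16 in Mest-KO 3, and 6 had it in a control array. The median SD within a group was 0.12 on the log2 scale in Mest-KO and 0.12 in control, of the same order as the median difference.

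**Figure D2:**
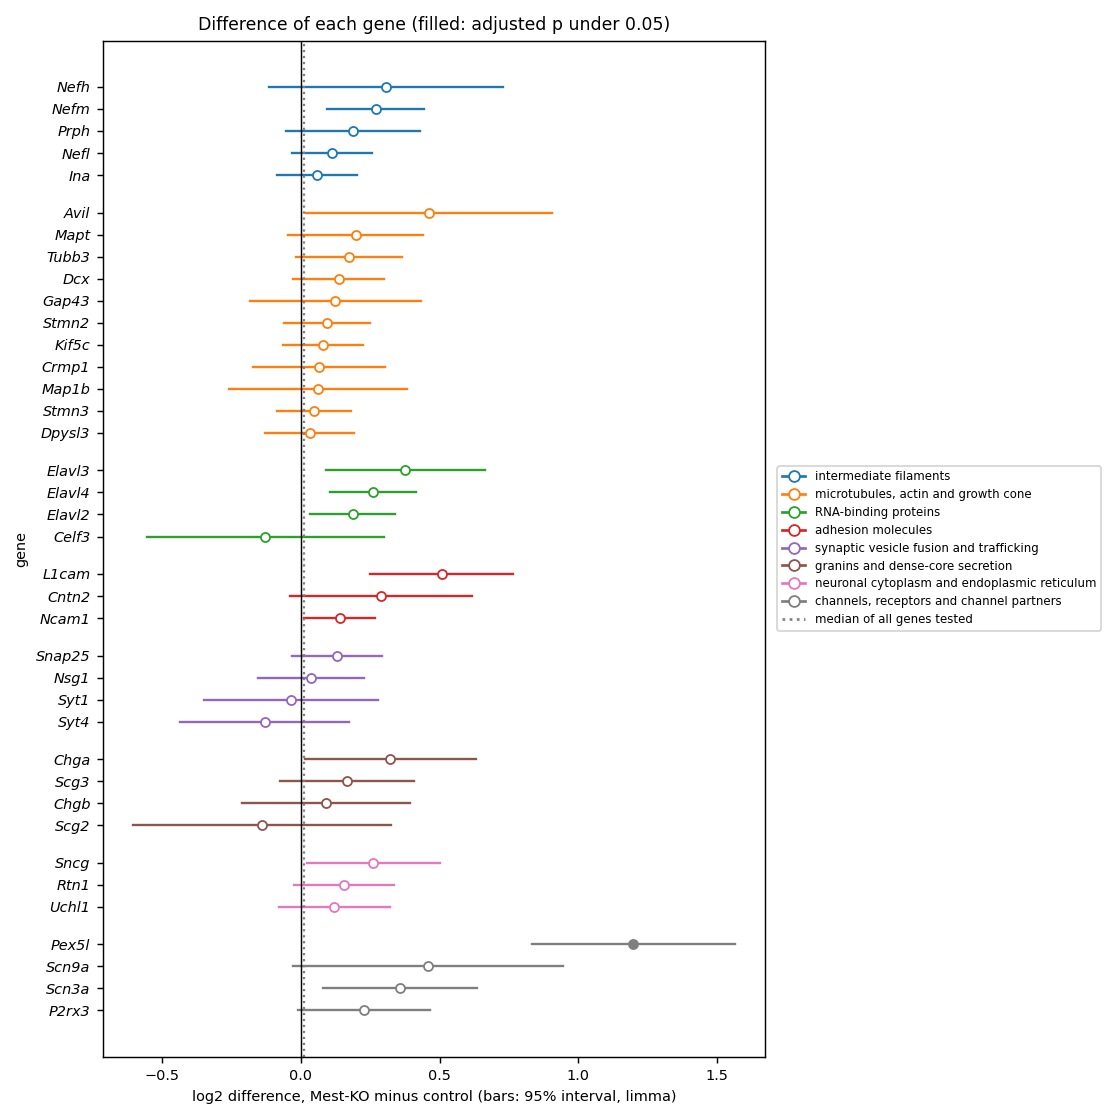
Log2 difference of each of the 38 genes, Mest-KO minus control, with its 95% interval from limma, grouped by role. Pex5l is the only filled point (adjusted p = 0.0256), and the intervals of 27 genes include 0.

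Channels, receptors and their partners were higher in all 3 Mest-KO arrays than in any control array for 4 of 4 genes (9.32% of all genes). Their median log2 difference was 0.41. Pex5l encodes TRIP8b, a protein that binds HCN pacemaker channels and sets their transport to the cell surface. It read 188, 146 and 207 in Mest-KO, against 61.1, 78.9 and 67.4 in control. Every Mest-KO value was well above every control value, and Pex5l rose 2.29-fold on the log2(intensity + 16) scale (log2 difference 1.20 ± 0.17, 95% interval 0.83 to 1.56; limma, adjusted p = 0.0256). The call was lost without Mest-KO 1 (adjusted p = 0.145), Mest-KO 3 (0.0604), control 1 (0.0794) or control 3 (0.116), although the difference stayed between 1.099 and 1.331 when any array was left out.

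Scn3a encodes a voltage-gated sodium channel of embryonic neurons. It read 1074, 936 and 829.7 in Mest-KO, against 798, 631 and 775 in control, so the groups were apart by a small margin (0.36 ± 0.13; limma, adjusted p = 0.415). P2rx3 encodes an ATP-gated channel of sensory neurons. It read 1817, 1752 and 1776 in Mest-KO, against 1572, 1734 and 1282 in control, with control 2 close to the Mest-KO values (0.23 ± 0.11; adjusted p = 0.570). Another probe set of P2rx3 overlapped between groups (-0.01 ± 0.15), and a dim one had groups apart (0.55 ± 0.19).

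Scn9a, the gene for the sodium channel Nav1.7 of sensory and sympathetic neurons, read 1207, 627 and 584 in Mest-KO, against 554, 540.3 and 557 in control. Mest-KO 1 was far above the other 5 arrays on this probe set. The log2 difference was 0.46 ± 0.22 with all arrays and 0.13 without Mest-KO 1, and neither passed (limma, adjusted p = 0.576 and 0.869). Another probe set of Scn9a read 481, 337 and 348 in Mest-KO, against 304, 242 and 320.4 in control, with Mest-KO 1 again highest but by less (0.40 ± 0.16). Further probe sets had groups apart toward higher values (0.30 ± 0.13 and 0.39 ± 0.17), and a dim one toward lower values (-0.13 ± 0.17).

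**Figure D3:**
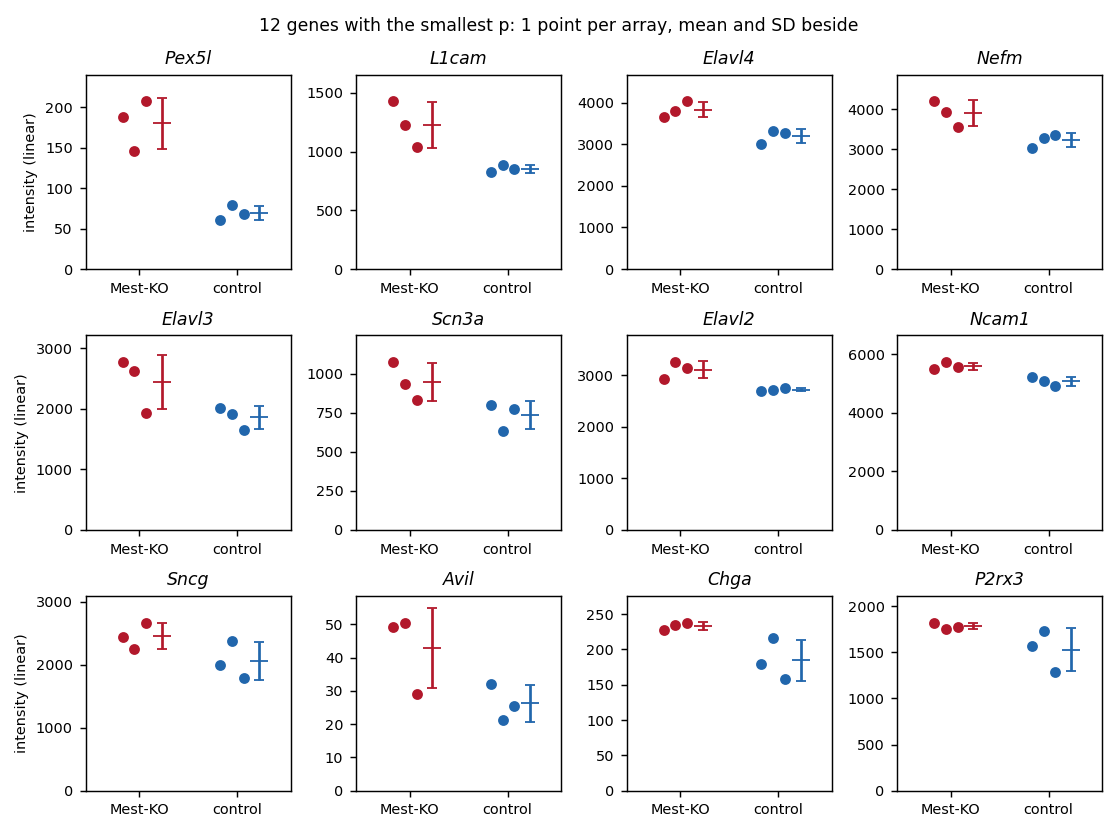
Linear intensity on each array for the 12 genes with the smallest p, 1 point per array, with the mean and SD (n = 3) beside the points and axes that start at 0. The gap between the groups is widest relative to level for Pex5l, and the ranges of Elavl3, Sncg and Avil overlap.

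Of the 3 adhesion molecules, all had a difference above 0 and 2 had groups apart (9.32% of all genes), with a median of 0.29. L1cam, an immunoglobulin-family molecule of growing axons, read 1427, 1223 and 1036 in Mest-KO, against 822, 887 and 849.5 in control. All Mest-KO arrays were higher, with a wider spread than in control (0.51 ± 0.12, 95% interval 0.25 to 0.77; limma, adjusted p = 0.179). Its other probe set read 106, 74.6 and 95.5 in Mest-KO, against 30.3, 40.7 and 63.3 in control, again without overlap (0.85 ± 0.22).

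Ncam1, the neural cell adhesion molecule gene, read 5499, 5729 and 5550.4 in Mest-KO, against 5209.6, 5099 and 4911 in control. The groups were apart but the difference was small (0.14 ± 0.06) and did not pass over all genes. Its other probe sets disagreed. The second bright one (0.05 ± 0.06) and 2 dimmer ones (-0.17 ± 0.18 and 0.14 ± 0.19) overlapped between groups, while a dim one, at 119, 56.1 and 66.8 in Mest-KO and 52.9, 15.1 and 29.4 in control, differed by 1.02 ± 0.30. Cntn2, encoding the axonal contactin TAG-1, differed by 0.29 ± 0.15 with overlapping groups, and control 2 was lowest. Other probe sets of Cntn2 disagreed too, at -0.003 ± 0.19, 0.41 ± 0.20 and, for a dim one, -0.40 ± 0.32, all with overlap.

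The RNA-binding proteins divided into the Hu genes and Celf3. Hu proteins bind AU-rich elements of messenger RNAs in neurons. All 3 of their genes here were higher at an unadjusted p under 0.05 (5.73% of all genes). Elavl4, encoding HuD, read 3670.4, 3812 and 4036 in Mest-KO, against 3014, 3324 and 3270.4 in control. The groups did not overlap (0.26 ± 0.07; limma, adjusted p = 0.231), and its 2 other probe sets, likewise without overlap, differed by 0.22 ± 0.08 and 0.25 ± 0.11.

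Elavl2, encoding HuB, read 2929, 3252 and 3135 in Mest-KO, against 2701, 2716 and 2748 in control. The control values were nearly the same and all lay below Mest-KO (0.19 ± 0.07; limma, adjusted p = 0.435), but 3 other probe sets of Elavl2 differed by only -0.05 to 0.11 with overlapping groups. Elavl3, encoding HuC, read 2767, 2615 and 1934 in Mest-KO, against 2011, 1915 and 1648 in control. Mest-KO 3 lay within the control range (0.38 ± 0.13; adjusted p = 0.400), while its 2 other probe sets, with groups apart, differed by 0.39 ± 0.13 and 0.27 ± 0.15. For the related gene Elavl1, which most cell types make, the difference was -0.01 ± 0.07.

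Celf3 encodes a splicing regulator of the brain. It read 190.5, 182 and 179 in Mest-KO, against 213, 143 and 270.4 in control. The Mest-KO values lay inside the control range, and control 1 and control 3 were above control 2 (-0.13 ± 0.19; limma, adjusted p = 0.890). Genes of the hindbrain neural tube split the controls in the same way, as described further on, but did not order the Mest-KO arrays as Celf3 did. A link was not tested.

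The 5 intermediate filament genes all had a difference above 0, with a median of 0.19. The groups were apart for 1 of them (9.32% of all genes). Nefm, encoding the middle-sized neurofilament subunit, read 4192, 3935 and 3557 in Mest-KO, against 3021, 3287 and 3362 in control. All Mest-KO arrays were higher (0.27 ± 0.08; limma, adjusted p = 0.281). Nefl, the light subunit gene, read 6526, 6814 and 7128 in Mest-KO, against 6028, 6793 and 6119 in control, with control 2 among the Mest-KO values (0.11 ± 0.07; adjusted p = 0.648). Its other probe set read 2990, 3115 and 3008 in Mest-KO, against 2651, 2546 and 2756 in control, without overlap (0.20 ± 0.07).

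Nefh, the heavy subunit gene, which is switched on late in neurons, was dim and read 72.9, 53.0 and 72.4 in Mest-KO, against 59.7, 36.6 and 56.2 in control. Its groups overlapped (0.31 ± 0.19; limma, adjusted p = 0.674). Prph, encoding peripherin of peripheral neurons, differed by 0.19 ± 0.11 and Ina, encoding alpha-internexin, by 0.06 ± 0.07, and their groups overlapped as well.

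On the probe set used for each gene, all 11 genes of microtubules, actin and growth cones had a difference above 0. The median was only 0.09, and on these probe sets the groups overlapped for every gene. Avil encodes advillin, an actin-binding protein of sensory neurons. It was dim, at 49.0, 50.3 and 29.0 in Mest-KO and 32.0, 21.2 and 25.5 in control, and Mest-KO 3 lay within the control range (0.46 ± 0.20; limma, adjusted p = 0.532). Dpysl3, encoding a collapsin response mediator, read 5439, 5635 and 5499 in Mest-KO, against 5232, 5019 and 6009.7 in control. The highest and the lowest values were control ones (0.03 ± 0.07; adjusted p = 0.934).

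The neuron-specific tubulin gene Tubb3 differed by 0.17 ± 0.09, the tau gene Mapt by 0.20 ± 0.11 and the doublecortin gene Dcx, whose product stabilises microtubules of young neurons, by 0.14 ± 0.07. The growth cone gene Gap43 differed by 0.12 ± 0.14, the stathmin genes Stmn2 and Stmn3 by 0.09 ± 0.07 and 0.05 ± 0.06, and the kinesin gene Kif5c by 0.08 ± 0.06. For Crmp1, encoding another collapsin response mediator, and Map1b, encoding a microtubule-associated protein, the differences were 0.07 ± 0.11 and 0.06 ± 0.14. The 95% interval of Stmn3 ran from -0.09 to 0.18 and that of Tubb3 from -0.02 to 0.36. Other probe sets differed more for Dcx (0.27 ± 0.09, groups apart), and for Mapt (0.41 ± 0.18) and Stmn2 (0.21 ± 0.09), with overlap. Below 0, with overlap, were other probe sets of Kif5c (-0.10 ± 0.14) and Map1b (-0.07 ± 0.11). So were dim ones of Dcx (-0.07 ± 0.17) and Mapt (-0.03 ± 0.18).

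Synaptic and secretory genes were mixed. The 4 genes of vesicle fusion and trafficking had a median of 0.001, with 2 above 0 and 2 below. Snap25, encoding a SNARE protein of vesicle fusion, read 4461, 4316 and 4778 in Mest-KO, against 3787, 4314 and 4296 in control. Mest-KO 2 and control 2 were almost equal, so the groups were only just apart (0.13 ± 0.07; limma, adjusted p = 0.641). Syt4, encoding a synaptotagmin of dense-core vesicles, read 280.3, 384 and 339 in Mest-KO, against 384, 379 and 332 in control. The groups overlapped (-0.13 ± 0.14; adjusted p = 0.837). Syt1, the calcium sensor gene of synaptic vesicle release, differed by -0.04 ± 0.14 and Nsg1, encoding an endosomal protein of neurons, by 0.04 ± 0.09.

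Among the granin and dense-core genes, 3 of 4 were above 0 and the median was 0.13. Chga, encoding chromogranin A, read 227, 235 and 237 in Mest-KO, against 179, 216 and 159 in control. The Mest-KO values were close together and above all controls (0.32 ± 0.14; limma, adjusted p = 0.532). Scg3, encoding secretogranin III, which helps to sort granule cargo, read 1246, 1039 and 1003 in Mest-KO, against 947, 905 and 1066 in control, with control 3 above Mest-KO 2 and 3 (0.17 ± 0.11; adjusted p = 0.695). Chgb, encoding chromogranin B, differed by 0.09 ± 0.14 and Scg2, encoding secretogranin II, by -0.14 ± 0.21 at a dim level.

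The 3 genes of the neuronal cytoplasm and endoplasmic reticulum had a median of 0.15, all above 0. Sncg, encoding gamma-synuclein of peripheral neurons, read 2437, 2255 and 2659.8 in Mest-KO, against 1988, 2383 and 1788 in control, and control 2 lay within the Mest-KO range (0.26 ± 0.11; limma, adjusted p = 0.508). Uchl1, encoding a ubiquitin hydrolase abundant in neurons, read 3969, 4309.6 and 4979.8 in Mest-KO, against 3794, 4402 and 3969.6 in control, with overlap (0.12 ± 0.09; adjusted p = 0.751). Rtn1, encoding a reticulon, differed by 0.15 ± 0.08 and its groups were just apart.

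Of the 93 probe sets, 82 passed the filter, 66 of them with a difference above 0 (52.6% of all 31526 probe sets tested) and 16 below. When every probe set was tested, 1 of the 82 rose at an adjusted p under 0.05, that of Pex5l already described, where 0.0254% of all probe sets rose, and 0 fell, where 0.0412% fell (limma, adjusted over all probe sets). At an unadjusted p under 0.05, 24 of the 82 were higher (6.61% of all probe sets) and 0 lower (3.09%). Probe sets of a gene share the arrays and often the transcript, so they are not separate evidence. Of the 22 genes with several tested probe sets, 12 had them all in the same direction. The 3 other probe sets of Pex5l were dim, and of the 2 that were tested the brighter read 63.4, 54.0 and 69.8 in Mest-KO, against 31.4, 45.3 and 56.8 in control, with overlap (0.39 ± 0.19). Averaged over all its probe sets, Pex5l differed by 0.57 and did not pass (limma, adjusted p = 0.229).

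**Figure D4:**
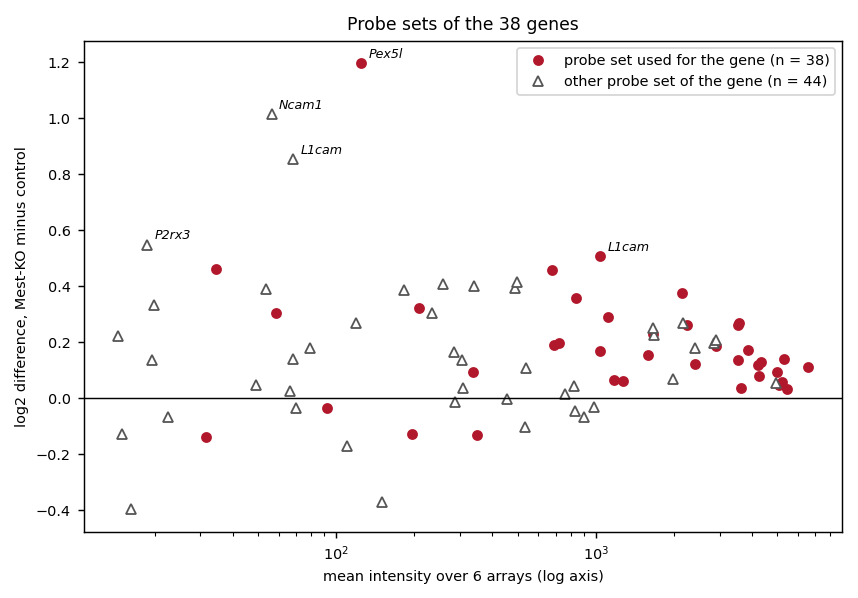
Log2 difference, Mest-KO minus control, of the 82 tested probe sets of the 38 genes against their mean intensity over the 6 arrays on a log axis. Filled circles are the 38 probe sets used for the genes and triangles the 44 others. Differences over 0.5 in size are labelled, all of them above 0.

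Other genes of the same processes were listed to see how far the shift extended. Of 97 such genes, 85 were tested, 51 with a difference above 0 (60%, against 53.8% of all genes) and 34 below, and the median was 0.04. 0 passed over all genes (limma), while at an unadjusted p under 0.05, 13 of the 85 were higher (15.3%, against 5.73% of all genes) and 3 lower (3.53%, against 3.24%). The groups were apart toward higher values for 15 (17.6%, against 9.32%) and toward lower values for 4 (4.71%, against 5.22%). Of the genes of synaptic vesicles and release, 14 of 20 were above 0, with a median of 0.22, and 8 were higher and 1 lower at an unadjusted p under 0.05. Among them, the synaptotagmin gene Syt2 differed by 0.53 ± 0.13, Syt11 by 0.38 ± 0.09, the synaptophysin gene Syp by 0.43 ± 0.13 and the syntaxin gene Stx1a by 0.37 ± 0.11, and the groups were apart for each.

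For 22 other genes of the axon cytoskeleton the median was 0.01 and 13 were above 0. The neuronal kinesin gene Kif5a read 1549, 993 and 1111 in Mest-KO, against 757, 956 and 841 in control (0.49 ± 0.15; limma, adjusted p = 0.321), while its widely made relative Kif5b differed by -0.08 ± 0.12. Among the 9 genes of this list below 0 were also Map2 (-0.16 ± 0.10) and Tubb2b (-0.12 ± 0.06). The groups of Tubb2b were apart toward lower values. The other sensory channel and peptide genes were above 0 for 12 of 16, with a median of 0.13. Of these, the calcium channel gene Cacna1b differed by 0.44 ± 0.13, and Trpv1, Trpa1 and Trpm8, channels of mature pain and temperature neurons, were too dim to be tested. Dense-core granule genes were above 0 for 5 of 8 (median 0.08) and neuronal RNA-binding genes for 4 of 10 (median -0.01). Among the RNA-binding genes below 0, Rbfox1 and Nova1 differed by -0.38 ± 0.20 and -0.30 ± 0.17, with overlap. Other neuronal adhesion genes differed in sign, with 3 of 9 above 0 and a median of -0.16. The neurexin-family gene Cntnap2 read 524, 481 and 447 in Mest-KO, against 798, 549 and 672 in control (-0.45 ± 0.14; adjusted p = 0.312).

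Markers of the cells that the dissection could hold differed between the genotypes to different degrees. Transcription factors and receptors of sensory ganglia averaged a deviation of 0.31, 0.20 and 0.13 in Mest-KO 1, 2 and 3 and -0.19, -0.21 and -0.24 in control 1, 2 and 3, with 11 of 13 genes above 0 (53.8% of all genes) and a median of 0.34. Of these, Pou4f1, a transcription factor of sensory neurons, read 2021, 2010.2 and 2061 in Mest-KO, against 1429, 1247 and 1365 in control (0.59 ± 0.08; limma, adjusted p = 0.0256). Neurog1, which drives the formation of these neurons, rose as well, at 555, 480.4 and 312 in Mest-KO and 183, 199 and 181 in control (1.15 ± 0.19; adjusted p = 0.0478). Isl1 and Neurod1, other transcription factors of these neurons, differed by 0.27 ± 0.08 and 0.34 ± 0.07. Neural crest and Schwann precursor genes were above 0 for 8 of 8 (53.8% of all genes), with a median of 0.20 and list means of 0.18, 0.14 and 0.04 in Mest-KO and -0.08, -0.18 and -0.10 in control.

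Hindbrain neural tube genes were mostly lower in Mest-KO. Of 17 tested, 16 were below 0, against 6548 of all 14170 genes, with a median of -1.09. Of the 17, 1 passed over all genes, Skor1, which fell, where 0.0635% of all genes fell. Skor1 read 25.6, 30.5 and 18.7 in Mest-KO, against 746, 138 and 750 in control (-3.46 ± 0.49; limma, adjusted p = 0.0256), so its control 2 value lay above Mest-KO. The list mean of the 17 genes was -0.64, -0.09 and -0.86 in Mest-KO 1, 2 and 3 and 0.93, -0.30 and 0.97 in control 1, 2 and 3. By this mean, control 2 lay within the Mest-KO range. The Y-linked genes also set control 2 apart, at 0.26, 0.23 and 0.01 in Mest-KO and -0.49, 0.43 and -0.43 in control. When the neural tube mean entered the fit as a covariate, the 38 genes had a median of 0.15 and 29 were above 0 (56.3% of all genes). At an unadjusted p under 0.05, 6 were higher (4.44% of all genes), and Pex5l did not pass (0.89, limma, adjusted p = 0.439). Because the neural tube mean itself differed between the genotypes, this fit cannot separate the 2. In that fit Celf3 differed by 0.32 ± 0.23. Without control 2, the median of the 38 genes was 0.16 and 12 were higher at an unadjusted p under 0.05 (5.39% of all genes). How much these tissues contributed to single differences was not tested.

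**Figure D5:**
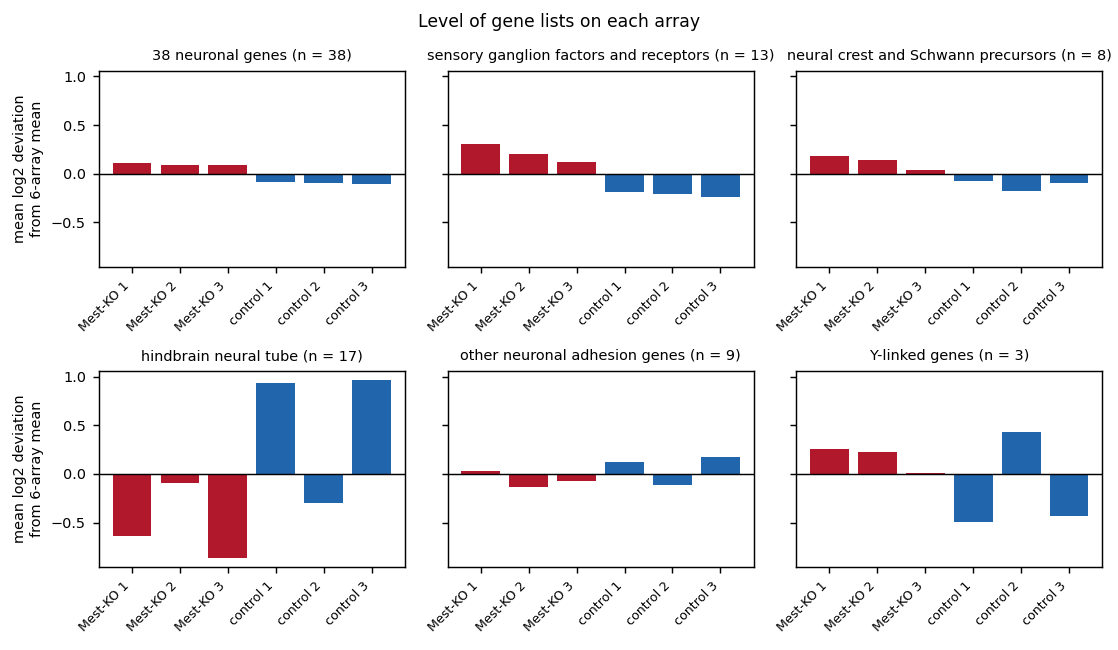
Mean deviation of log2(intensity + 16) from the 6-array mean for 6 gene lists on each array, Mest-KO in red and control in blue. The 38 neuronal genes, the sensory ganglion list and the neural crest list are above 0 in all Mest-KO arrays and below 0 in all controls, while the hindbrain list reaches 0.93 and 0.97 in control 1 and control 3 and is below 0 in control 2.

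Among 7 tested genes of autonomic and visceral motor neurons, 6 were above 0 (53.8% of all genes), with a median of 0.39. Hand2, which mesenchyme also makes, passed over all genes (2.10 ± 0.24; limma, adjusted p = 0.0105). Isl2, which sensory neurons also make, read 724, 548 and 592 in Mest-KO, against 375, 408 and 318 in control (0.73 ± 0.14; adjusted p = 0.0926). Phox2a, a determinant of autonomic neurons, differed by -0.13 ± 0.23 and Tbx20, of visceral motor neurons, by 0.83 ± 0.42, both with overlap. Chat and Mnx1, genes of cholinergic and motor neurons, read below 11.2 on all arrays, the top reading among 27 probe sets for unspiked bacterial transcripts. Th and Dbh, enzymes of catecholamine synthesis in sympathetic neurons, averaged 34.1 ± 5.05 and 29.0 ± 11.6 in Mest-KO and 34.6 ± 15.0 and 17.6 ± 2.91 in control (SD, n = 3). Those of Dbh did not overlap between groups and those of Th did. Genes of skeletal muscle had a median of 0.07 over 9 genes, otic epithelium -0.02 over 13, periotic mesenchyme -0.05 over 11 and red blood cells -0.19 over 7. Of these, 1 gene passed over all genes, Meox1 of the mesenchyme list, a transcription factor of somitic mesoderm, which rose (1.15 ± 0.18; limma, adjusted p = 0.0433), where 0.0847% of all genes rose.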

How the data were processed

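RNA was measured on 6 one-colour Affymetrix Mouse Genome 430 2.0 arrays, from 300 ng of total RNA each per the labels' protocols. The authors deposited linear intensities. Per the submitters' processing notes they used Affymetrix Expression Console 1.1, while how probes were summarized and background was corrected is not stated. Leaving out the lowest and highest 2% of values, each array averaged 500.002, which means that arrays were brought to 1 level and a shift common to most genes is lost. Precision is limited by the number of arrays.

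The 64 control probe sets were not tested. Of the others, 34945 were listed with 1 gene symbol in the platform annotation, 932 with several and 9160 were not listed and so unnamed here, and 0 symbols changed when checked through Entrez IDs against RefSeq (GRCm38.p6). Intensities were taken as log2(value + 16), a scale on which changes of dim genes look smaller. Genes whose brightest probe set lay above the 30th percentile of probe set means were kept.

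Genotypes were compared over all genes kept with limma 3.58.1 (R 4.3.3), genotype as the only term, eBayes with trend, two-sided, Benjamini-Hochberg at 0.05. The ± after a log2 difference is its standard error from limma, the source of the 95% intervals too. An exact permutation test of 3 against 3 cannot go below 0.1. The code was tested on simulated data. The 38 genes, and the other lists, were chosen with earlier results of these data known, so counts are given beside the share of all genes and with no test of the list. Every array value is given for genes past the threshold, the 12 with the smallest p and, in each role, the gene of highest mean and of largest difference, plus Scn9a and Celf3, chosen after their values were seen. From the other lists, genes past the threshold or at an unadjusted p under 0.01 could be named, as could the ganglion factors. Chosen later were Elavl1, Kif5b, Map2, Tubb2b, Rbfox1, Nova1, Trpv1, Trpa1, Trpm8, Chat, Mnx1, Th, Dbh, Phox2a and Tbx20. The alternatives tried were quantile normalization, median centring, other pseudocounts (1 and 64), the mean of all probe sets, no filter or a stricter one (50th percentile), eBayes without trend, array weights, the replicate block, 2 covariates and leaving out each array.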

Additional observations from a re-analysis of the deposited data

How the results depend on the processing

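The median log2 difference of the 38 genes stayed above 0 in all 18 alternatives. It was 0.083 with arrays centred on their medians, where the median of all genes was -0.052 and the distance between both medians stayed at 0.13, and 0.13 to 0.18 with any 1 array left out. Pex5l, the 1 gene past the threshold, kept its direction in all 18 and passed in 8. The count was 0 with no filter on dim genes, the mean of all probe sets, eBayes without trend, the replicate block, the Y-linked covariate and the neural tube covariate, and 0 to 1 with an array left out (0 without Mest-KO 1 or 3 or control 1 or 3). The count higher at an unadjusted p under 0.05, 11 with all arrays (5.73% of all genes), was 4 with median centring (2.87%) and 6 with the neural tube covariate (4.44%). With an array left out it was 7 to 12 (4.04% to 6.18% of all genes), with 7 without Mest-KO 1 or control 3. The count lower was 0 to 1, the 1 being Celf3 without control 2 (5.17% of all genes). The count with groups apart was 3 with median centring (4.50% of all genes). Among all genes tested, 21 passed, but 78 with median centring (22 higher and 56 lower, against 12 and 9), 2 with no filter, 6 with the mean of all probe sets, 1 with eBayes without trend, 9 with the replicate block, 6 with the neural tube covariate and 2 to 84 with an array left out (2, 84 and 6 without control 1, 2 and 3, 3 and 9 without Mest-KO 1 and 2). The labels do not say that replicate numbers pair the samples. Same-numbered arrays had correlations of -0.03, -0.11 and -0.15 of their deviations from the group means. Deviations from a mean of 3 arrays are tied to each other, so these values cannot show whether a litter or day was shared. With the replicate block 10 of the 38 genes were higher at an unadjusted p under 0.05 (5.17% of all genes), 8 of them among the 11.

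Directions turned in some setting for 15 of the 38 genes, each without passing in any setting. Median centring lowers every gene by 0.065, which alone puts those with a smaller difference below 0: Ina (-0.0079), Stmn3 (-0.019), Map1b (-0.0030), Dpysl3 (-0.034) and Nsg1 (-0.028). With the neural tube covariate the direction turned for Nefl (-0.0033), Stmn2 (-0.040), Map1b (-0.15), Gap43 (-0.18), Nsg1 (-0.085), Uchl1 (-0.041), Sncg (-0.031), Celf3 (0.32) and Syt1 (0.050). With the mean of all probe sets Kif5c differed by -0.068, and with the Y-linked covariate Celf3 by 0.094. With an array left out, Map1b ranged from -0.070 to 0.21, Dpysl3 from -0.022 to 0.11, Crmp1 from -0.029 to 0.14, Gap43 from -0.015 to 0.26, Celf3 from -0.36 to 0.067, Syt1 from -0.076 to 0.023, Nsg1 from -0.035 to 0.10 and Scg2 from -0.31 to 0.027. The cause of these changes was not tested.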
